A study of Rattus norvegicus with 10 samples.

Results

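Bfsp1 and Bfsp2, the 2 beaded filament genes of the lens, were found by gene name among the 3334 genes of the deposited RNA-seq table, and each had 1 row there. Both had counts far above the filter on low values and both were among the 3222 genes tested. The lens capsules, with the lens epithelial cells attached to them, came from male Sprague-Dawley (SD) rats aged 6 weeks, and each sample combined the 2 capsules of 1 rat. Lenses of the Hypothermia Group (5 rats) were taken out whole and held for 8 h at 4°C in Hibernate-A medium, and only then were the capsules dissected off. For the Normal Group (5 rats), capsule dissection followed euthanasia with no incubation. Cold, time in medium and isolation of the whole lens therefore came together and cannot be told apart, and no group was kept in medium at body temperature.

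Bfsp1 encodes filensin and Bfsp2 encodes phakinin (CP49), intermediate filament proteins that lens fibre cells make as they differentiate from the epithelium. The partners assemble with α-crystallin into the beaded filament, a cytoskeletal structure found in fibre cells only, which helps to keep fibre shape and lens clarity. Mutations of either gene are known causes of inherited cataract. Both partners are needed for a beaded filament, and their ratio was therefore followed beside their levels.

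Since both genes were higher in the same rats, the 250 bases before the annotated start of each are shown here, from RefSeq for GRCr8, a newer build than the Rnor_6.0 of the counts. Both genes had an entry (2 of 2), and both lie on the minus strand. The sequences run 5′ to 3′ along the gene, and capitals mark matches to the motifs searched.
Bfsp1 (chr3:151682838-151683087): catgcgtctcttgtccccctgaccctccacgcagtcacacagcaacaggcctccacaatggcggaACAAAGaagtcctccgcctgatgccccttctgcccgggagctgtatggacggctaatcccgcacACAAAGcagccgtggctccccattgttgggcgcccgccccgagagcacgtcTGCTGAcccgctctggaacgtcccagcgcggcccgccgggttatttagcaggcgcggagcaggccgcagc
Bfsp2 (chr8:112942247-112942496): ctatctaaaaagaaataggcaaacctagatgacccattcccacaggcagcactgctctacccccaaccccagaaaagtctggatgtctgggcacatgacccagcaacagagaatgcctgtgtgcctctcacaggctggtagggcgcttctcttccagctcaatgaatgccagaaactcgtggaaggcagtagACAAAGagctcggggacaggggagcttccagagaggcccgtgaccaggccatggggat

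The windows differed in base composition. That of Bfsp1 had a GC content of 65.6% and 21 CpG dinucleotides, and that of Bfsp2 had 54.8% and 4, against medians of 51.2% and 5 over the 33469 promoters of the same length. Of 5 motifs searched on both strands, the Sox-type letters CTTTGT matched at 2 places for Bfsp1 and 1 for Bfsp2, where 16.3% of all promoters hold a match. The Maf half-site letters TGCTGA matched once, in Bfsp1, from 70 to 65 bases before the start, where 15.1% of all promoters hold a match. GAANNTTC (1 form of the heat shock element, in 7.23% of promoters), TGANTCA (AP-1, in 6.34%) and TATAAA (in 12.9%) matched in neither window. Other forms and bases farther away were not searched, so this does not show that such sites are absent. The marked matches do not overlap each other. Such matches describe the letters only, and RefSeq also places the outer end of the Bfsp1 gene upstream of this start.

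Normal rats had 4792595 to 8177803 counts over all listed genes, and Hypothermia rats 9026144 to 12415121. The table held selected genes only. The smallest difference between the authors' group means in it was 0.25 on the log2 scale, so the presence of Bfsp1 and Bfsp2 in it already reflects a difference between these rats, and tests on them are no independent evidence of its direction. FPKM values here are counts divided by gene length, by the authors' size factor of the rat and by 1 constant common to all rats, so they rest on the same scaling as the test. The tissue check was likewise partial. Of the 4 defining epithelial genes, Pax6 and Gja1 were listed, with mean FPKM of 167 and 405 in Normal rats and 140 and 299.8 in Hypothermia rats, and Foxe3 and Cdh1 were not analysed here. Differences in these bulk samples can come from the number of fibre cells or from the RNA in each, which cannot be told apart.

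Bfsp1 (chromosome 3 of Rnor_6.0, 137935345 to 137969658, minus strand, protein coding, with 2132 bases counted as its length) varied over a wider fold range among the Normal rats than among the Hypothermia rats. Its SD in FPKM was larger in the Hypothermia Group, a direction that rested on replicate 5 of that group. Its FPKM was 436 in Normal replicate 1, 175 in replicate 2, 50.1 in replicate 3, 96.6 in replicate 4 and 163 in replicate 5. In the Hypothermia Group it was 799, 679, 566, 524 and 1559 in replicates 1 to 5. Every Hypothermia rat lay above every Normal rat, but the distance from the lowest of the former to Normal replicate 1 was only 1.20-fold, while Hypothermia replicate 5 stood 1.95-fold above the next rat. The highest and lowest Normal rats differed 8.70-fold (3.50-fold without replicate 1), and the highest and lowest Hypothermia rats 2.98-fold.

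Bfsp2 (chromosome 8 of Rnor_6.0, 111908614 to 111965889, minus strand, protein coding, length 1549 bases) covered a narrower range, with the same rats highest in each group and the same rat lowest in the Normal Group. Its FPKM was 579, 352, 219, 259.6 and 303 in Normal replicates 1 to 5 and 886, 765, 1001, 801 and 1489 in Hypothermia replicates 1 to 5. The groups again did not overlap, and the closest rats, Normal replicate 1 and Hypothermia replicate 2, differed 1.32-fold. Normal rats spanned 2.64-fold (1.61-fold without replicate 1) and Hypothermia rats 1.95-fold. By FPKM among the listed genes, Bfsp2 held ranks 30 to 43 in Hypothermia rats and 43 to 102 in Normal rats, and Bfsp1 held ranks 29 to 81 and 67 to 422.

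**Figure D1:**
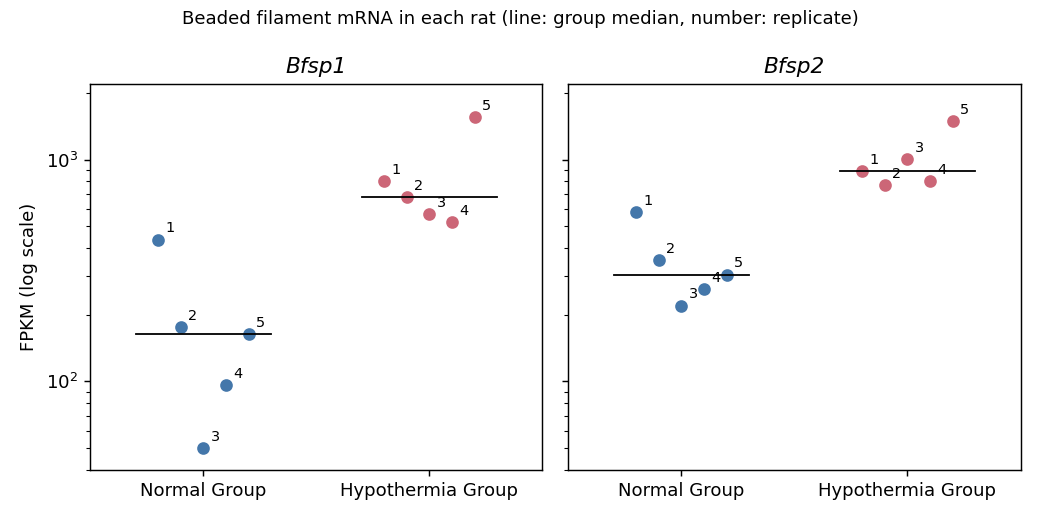
FPKM of Bfsp1 and Bfsp2 (log axis) in the 5 Normal and 5 Hypothermia rats, each point 1 rat numbered by replicate, with a line at the group median. All Hypothermia points lie above all Normal points for both genes, and Normal rats span 8.70-fold for Bfsp1 and 2.64-fold for Bfsp2.

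For Bfsp1, FPKM averaged 825 ± 424 (SD, n = 5) over Hypothermia rats against 184 ± 150 (SD, n = 5) over Normal rats. For Bfsp2 the averages were 988 ± 295 (SD, n = 5) against 343 ± 141 (SD, n = 5). Fitted to the counts of the whole table with edgeR (quasi-likelihood, Benjamini-Hochberg over 20000 genes, a round number above those such a tissue expresses), the log2FoldChange was 2.16 for Bfsp1 (standard error 0.55, adjusted p = 0.0304) and 1.53 for Bfsp2 (standard error 0.27, adjusted p = 0.00748). Both members passed the thresholds for up-regulation, an adjusted p below 0.05 with a log2FoldChange over 1, as did 9.81% of the listed genes tested (316 genes, while 46 or 1.43% were down-regulated). By adjusted p alone, 49.1% of the genes tested were higher. Rats of the Hypothermia Group lay above all Normal rats for 41.9% of the genes tested.

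The call of Bfsp1 was lost in 6 of 10 fits that left out 1 rat, with adjusted p-values (edgeR) of 0.0589, 0.0518 and 0.0700 without Hypothermia replicates 1, 3 and 5 and of 0.0670, 0.0761 and 0.0746 without Normal replicates 2, 4 and 5. The log2FoldChange in these 10 fits stayed between 1.80 and 2.77, the highest without Normal replicate 1. Bfsp2 passed in each of them, with log2FoldChanges from 1.33 to 1.80 and adjusted p-values (edgeR) of at most 0.0258. Both calls were lost when the totals of the listed genes served as library sizes, which lowered the median of all genes by 1.23 (log2FoldChange 1.07 for Bfsp1 and 0.34 for Bfsp2).

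**Figure D2:**
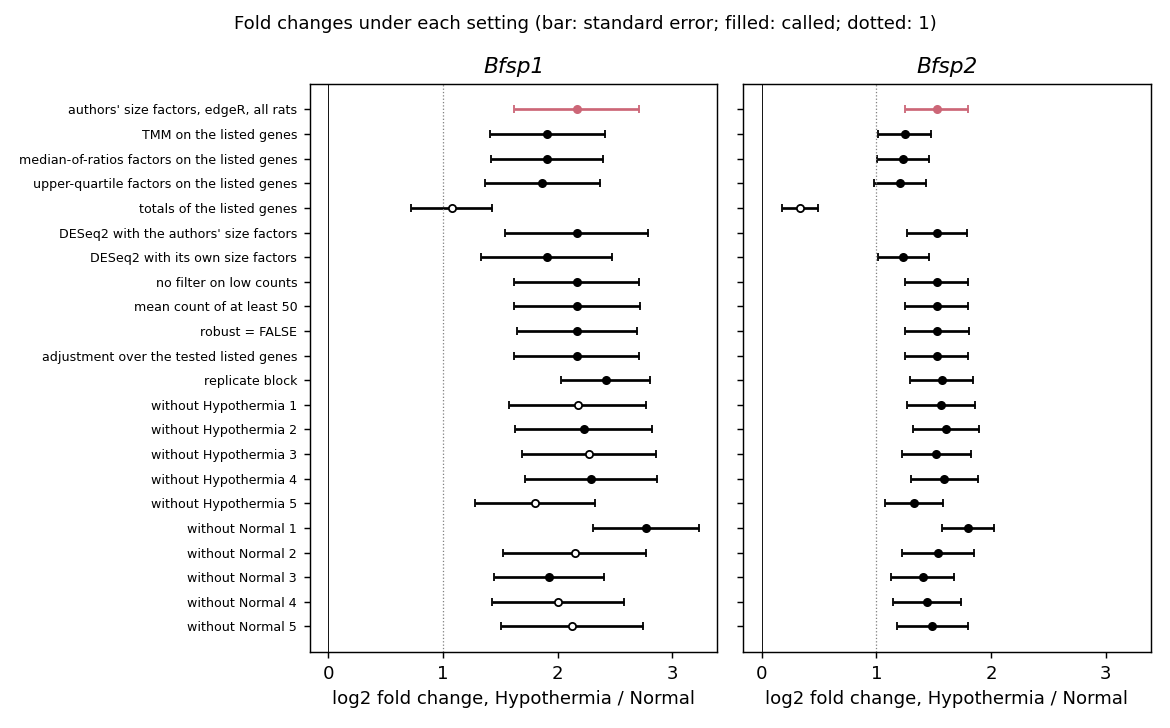
Log2 fold change of Bfsp1 and Bfsp2 (horizontal axis, Hypothermia over Normal) under each setting, with standard errors, filled where the gene was called and open where not, and a dotted line at 1. Bfsp2 is open only for listed-gene totals, and Bfsp1 also in 6 fits that leave out 1 rat.

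The ratio of the partners asks whether the members moved by the same factor, and it needs no scaling between rats. The FPKM of Bfsp2 over that of Bfsp1 was 1.33 in Normal replicate 1, 2.01 in replicate 2, 4.38 in replicate 3, 2.69 in replicate 4 and 1.86 in replicate 5. In Hypothermia replicates 1 to 5 it was 1.11, 1.13, 1.77, 1.53 and 0.956. Bfsp2 was thus the more abundant partner per length in all rats but Hypothermia replicate 5. The groups overlapped through Normal replicate 1, and the other 4 Normal rats exceeded every Hypothermia rat.

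The ratio averaged 1.30 ± 0.338 (SD, n = 5) over Hypothermia rats and 2.45 ± 1.18 (SD, n = 5) over Normal rats. On the log2 scale it was lower by 0.84 in the Hypothermia Group (difference -0.84, standard error 0.33, exact permutation test over 252 assignments, two-sided p = 0.0397, where 0.00794 is the smallest possible). Adjusted over this ratio and the 14 ratios to other lens genes described next, p was 0.0850 (Benjamini-Hochberg on exact permutation p-values). The difference between the partners thus did not pass with that adjustment. It kept its direction without any 1 rat, from -1.03 to -0.60. The unadjusted p, with 0.0159 as the smallest possible, was 0.0635 or 0.0794 in the exact test without Hypothermia replicates 1, 2 or 5 or Normal replicates 2, 3, 4 or 5.

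**Figure D3:**
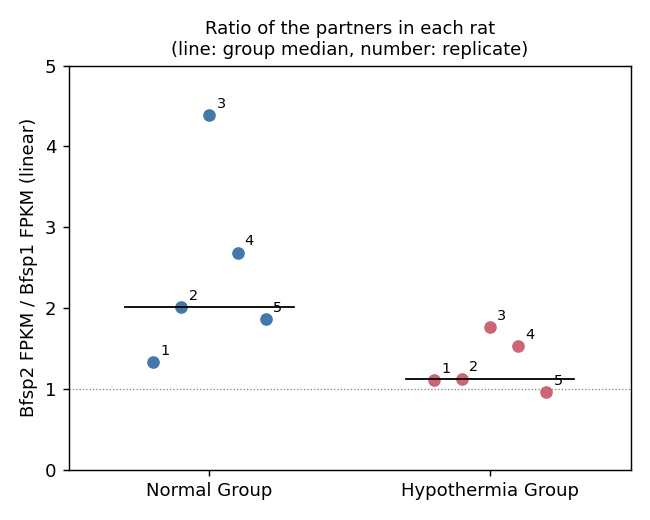
FPKM of Bfsp2 divided by FPKM of Bfsp1 (linear axis from 0) for each rat, numbered by replicate, with a line at the group median and a dotted line at equal levels. Medians are 2.01 in the Normal Group and 1.13 in the Hypothermia Group, and Normal replicate 1 lies among the Hypothermia rats.

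**Figure D4:**
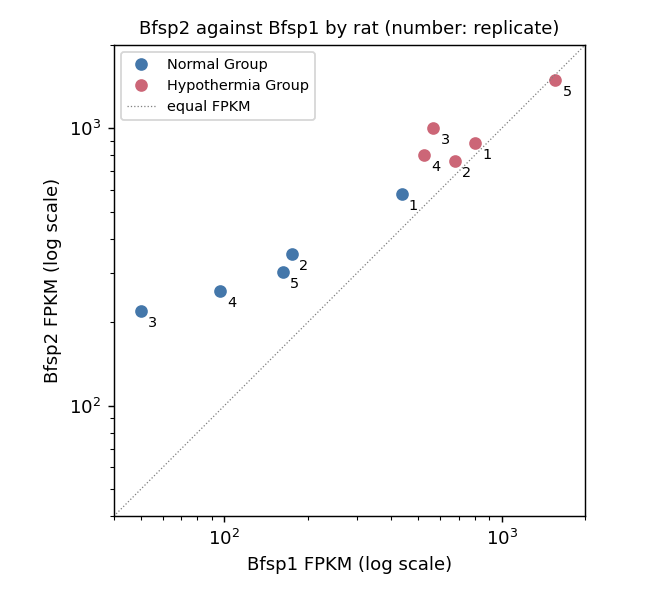
FPKM of Bfsp2 against FPKM of Bfsp1 (both log axes), each point 1 rat numbered by replicate, with a dotted line at equal levels. The rat with the least Bfsp1, Normal replicate 3, lies farthest above the line at a ratio of 4.38, and the rat with the most, Hypothermia replicate 5, lies just below it at 0.956.

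Within the Normal Group, the SD of log2 normalized counts was 1.15 for Bfsp1 and 0.53 for Bfsp2, from the same values as the ratio, and the difference between these SDs was not tested. Among 26 tested genes (the crystallin and fibre membrane lists and the members), Bfsp2 ranked 4 from the smallest SD, after Efna5 (0.065), Atp1b1 (0.21) and Gja3 (0.40), and Bfsp1 ranked 18. In the Hypothermia Group the SDs were 0.63 and 0.39. By log2FoldChange, from the highest, Bfsp1 ranked 11 of the 26 and Bfsp2 ranked 21. Efna5 and Atp1b1 ranked 25 and 26, below 0 (-0.35 and -0.73). Whether the genes on these lists are confined to fibre cells was not tested.

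Each member was next set against other lens genes of the same library, not all confined to fibres, as the log2 ratio of counts. The partners were Mip (the fibre water channel aquaporin 0), Lim2 (a fibre membrane protein), Cryaa and Cryab (α-crystallins), Hsf4 (a heat shock transcription factor of the lens), Tmod1 (tropomodulin, which caps actin filaments) and the summed crystallins. Of 14 ratios, 5 passed at an adjusted p of 0.0222 (exact permutation tests, two-sided, Benjamini-Hochberg over 14), 4 of them for Bfsp2 and 1 for Bfsp1. With any 1 rat left out 5 or 6 passed, and adjusted p-values of these 5 were then at most 0.0444 in the exact tests. In these 5 the groups did not overlap, which removing a rat cannot change. Their passing without 1 rat was therefore fixed beforehand and says nothing about stability.

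Bfsp2 was lower in the Hypothermia Group relative to 3 of the 6 single genes and to the summed crystallins. Its ratio to Mip was 0.230 to 0.497 in Hypothermia rats against 0.553 to 2.60 in Normal rats, a log2 difference of -1.79 (standard error 0.49). Its ratio to Lim2 lay between 0.532 and 0.892 against 1.13 to 2.71, a difference of -1.30 (standard error 0.27). Per read of Hsf4, there were 28.7 to 35.5 reads of Bfsp2 in Hypothermia rats and 36.2 to 121 in Normal rats, a difference of -0.91 (standard error 0.31). To the summed crystallins the difference was smaller, -0.47 (standard error 0.18). These 4 ratios are those that passed for Bfsp2, and in each the groups did not overlap. Toward both α-crystallins and Tmod1 no difference was detected, with -0.20 (standard error 0.15, adjusted p = 0.283) for Cryaa, 0.01 (standard error 0.19, adjusted p = 0.952) for Cryab and 0.19 (standard error 0.20, adjusted p = 0.444) for Tmod1 in the exact permutation tests.

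For every partner, the values of Bfsp1 and Bfsp2 differ by the same amount, that of the ratio between the members, so the ratios of Bfsp1 add no separate evidence that the members differ. The reads of Bfsp1 per read of Hsf4 stayed between 27.4 and 41.8 over all 10 rats, a 1.52-fold range, while Bfsp1 itself spanned the levels given above. The log2 difference was -0.07 (standard error 0.11, adjusted p = 0.538 in the exact permutation test), the smallest in size among the ratios of Bfsp1. Against Tmod1 it was higher, with 68.7 to 116 reads of Bfsp1 per read of Tmod1 in the Hypothermia Group and 25.1 to 53.6 in the Normal Group, a difference of 1.03 (standard error 0.25) that passed. Against Mip (-0.95, standard error 0.28, adjusted p = 0.0741) and Lim2 (-0.46, standard error 0.20, adjusted p = 0.111) it was lower, and against Cryaa (0.63, standard error 0.34, adjusted p = 0.148), Cryab (0.85, standard error 0.40, adjusted p = 0.139) and the summed crystallins (0.36, standard error 0.27, adjusted p = 0.283) higher, without passing the exact permutation tests.

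**Figure D5:**
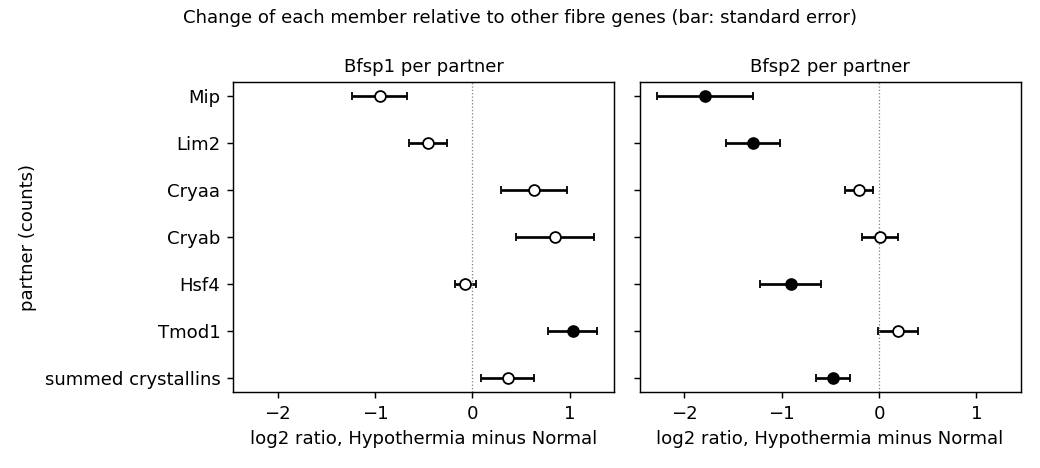
Difference between the groups (Hypothermia minus Normal) in the log2 ratio of Bfsp1 or Bfsp2 counts to each partner's counts, with standard errors, filled where the adjusted p was under 0.05. Bfsp2 lies below 0 against Mip, Lim2, Hsf4 and the summed crystallins, and Bfsp1 above 0 against Tmod1.

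The genes whose levels moved most like each member were taken from the 2980 other genes averaging 50 normalized counts or more, by Pearson r over the 10 rats after the group means had been removed. For Bfsp1 they were Sh3bgr (r = 0.996), Crygc (0.985), Mapk8ip1 (0.985), Fam89a (0.984) and Ndrg1 (0.984). For Bfsp2 they were Ube2k (r = 0.989), Dbi, the acyl-CoA binding protein (0.985), Wsb2 (0.982), Tdrd7, a component of RNA granules needed for lens development (0.980), and Rnf165 (0.972). No gene was on both lists. Between the members r was 0.928, where Bfsp2 ranked 33 among the genes compared with Bfsp1, and Bfsp1 ranked 57 among those compared with Bfsp2. Without Normal replicates 1 and 3, the rats farthest from their group mean for Bfsp1, r between the members was 0.847, and without Normal replicate 1 and Hypothermia replicate 5, the farthest for Bfsp2, it was 0.780. All values share libraries and size factors, and r is a description.

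Among other intermediate filament genes, 4 of 30 were listed and 2 tested, Vim (vimentin, the filament of lens epithelium and young fibres) and Synm (synemin), while Nefl and Krt15 had too few counts. Vim stood at 0.45 in edgeR (standard error 0.15, adjusted p = 0.0835), which turned to -0.79 with listed-gene totals. Synm stood at 0.95 in edgeR (standard error 0.29, adjusted p = 0.0581), and -0.18 with listed-gene totals. Neither was called with all rats, and Synm was called without Hypothermia replicate 5 (1.10, adjusted p = 0.0322 from edgeR). The members' values of 2.16 and 1.53 stand beside these, and the difference between them and Vim was not tested.

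Of 33 genes of the fibre membrane skeleton and filament linkers, 19 were listed and tested. Their median log2FoldChange was 0.65, beside 0.36 over all genes tested. Of the 19, 4 were up-regulated, beside 9.81% of all genes tested. They were Sptbn1 (β-spectrin, 1.18), Prx (periaxin, a scaffold protein of the fibre membrane, 1.17), Epb41l1 (a band 4.1 protein, 1.11) and Tmod2 (tropomodulin 2, 1.55, lost in 8 of 10 fits that left out 1 rat), of which Sptbn1, Prx and Epb41l1 lay slightly below 0 with listed-gene totals. In edgeR with TMM, median-of-ratios or upper-quartile scaling or listed-gene totals none of the 19 was called, while DESeq2 with its own size factors called 1 and with the authors' size factors 5. In edgeR without Hypothermia replicate 3 there were 2. Tmod1 missed the threshold in edgeR, at 1.31 (standard error 0.44, adjusted p = 0.0971). It was called by DESeq2 with the authors' size factors (adjusted p = 0.0136), by edgeR with adjustment over the tested listed genes (adjusted p = 0.0156) and by edgeR without Normal replicate 1 (1.82, adjusted p = 0.0103). In the other direction, Tmod1 fell to 0.15 with listed-gene totals and to 0.89 without Hypothermia replicate 5 (adjusted p = 0.250 from edgeR).

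All 15 listed crystallins of 16 were up-regulated, with a median log2FoldChange of 2.14, Bfsp1 lying close to it and Bfsp2 below it. This count and those of the lists that follow stand beside 9.81% up-regulated over all genes tested. Among the crystallins, 7 were called without Normal replicate 4 or 5 and 9 without Normal replicate 2 or Hypothermia replicates 3 or 5. TMM gave 11 calls, a replicate block 8 and listed-gene totals 3. Of 13 genes on the fibre membrane list 9 were tested and 6 up-regulated (median 1.84), among them Mip (2.91), Lim2 (2.64) and the connexin gene Gja3 (1.35). Efna5, an ephrin ligand (-0.35, adjusted p = 0.0196 from edgeR), and Atp1b1, a sodium pump subunit (-0.73, adjusted p = 0.129 from edgeR), lay lower in every Hypothermia rat than in any Normal rat, without reaching the call. The same held for 16.7% of all genes tested, which lay lower without overlap. Of 24 regulators of fibre differentiation 13 were tested and 5 up-regulated (median 0.64), among them Hsf4 (2.19), Tdrd7 (1.57), Caprin2 (1.54) and Rbm24 (1.28), the latter 3 being RNA-binding proteins or RNA granule components. Of 17 genes of late maturation and proteolysis 7 were tested and 2 up-regulated, Capn3 (1.51), a calpain protease of the lens, and Birc7 (2.61). Birc7 is not a membrane protein, but it was also counted on the membrane list, as 1 of the 6 calls there. Of the 2 maturation calls, that of Birc7 was lost in 7 of 10 fits without 1 rat. These were the fits without Hypothermia replicates 1, 2, 3 or 5 or Normal replicates 2, 4 or 5. With listed-gene totals 3 membrane genes, 1 regulator and 0 maturation genes were called, the calls of Gja3, Birc7, Tdrd7, Caprin2, Rbm24 and Capn3 being lost and those of Mip, Lim2 and Hsf4 kept. Of the regulators, 3 were called without Normal replicate 4. The call of Rbm24 was lost in 6 of 10 such fits (without Hypothermia replicates 1, 3 or 5 or Normal replicates 3, 4 or 5), and its log2FoldChange was 0.99 with TMM, 0.97 with median-of-ratios and 0.95 with upper-quartile scaling.

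Of the tested markers of other cells, 1 of 6 epithelial, 1 of 4 stromal and muscle and 1 of 4 pigment and ciliary genes were down-regulated, beside 1.43% of all genes tested. Of 20 epithelial markers 6 were listed, and their summed FPKM was 633 to 659.9 in Hypothermia rats and 707 to 824 in Normal rats, with Notch3 the 1 of 6 down-regulated (-1.33) and Itgb1 above 0 (0.40, not called). For 13 stromal and muscle markers 4 were listed, with a summed FPKM of 7.26 to 31.9 against 18.4 to 188, which overlap. The largest part of that sum was Fbn1, which was not called (mean FPKM 16.8 in Hypothermia and 81.9 in Normal rats). The 1 of 4 down-regulated was Fn1 (-3.09), at low levels (mean FPKM 0.29 and 2.40). The Fn1 call was lost in 6 of 10 fits without 1 rat, those without Hypothermia replicates 2, 3, 4 or 5 or Normal replicates 3 or 5, and its value was -2.15 without Normal replicate 3. For 13 pigment and ciliary epithelium markers 6 were listed, with a summed FPKM of 5.29 to 13.4 against 14.4 to 39.9. Of these, 1 of 4 tested was down-regulated, Pmel (-1.77), also at low levels (mean FPKM 0.75 in Hypothermia and 2.55 in Normal rats). The Pmel call was lost without Hypothermia replicate 3 or Normal replicates 4 or 5. Of 12 photoreceptor markers none was listed, and of 14 blood and vessel markers only Vwf. Summed crystallin FPKM was 367024 to 787428 in Hypothermia rats and 52247 to 259341 in Normal rats. It includes Cryaa and Cryab, which averaged 42646 and 9568 in Normal rats and which lens epithelium also makes. The sum is therefore not a measure of fibre RNA alone. The part of fibre content and of these other cells in the members' difference was not tested. Taken as parts per 1000000 listed counts outside the crystallin and fibre membrane lists, a measure added after seeing the data, Bfsp1 was higher by 1.96 (standard error 0.53, exact permutation p = 0.0159) and Bfsp2 by 1.12 (standard error 0.23, exact permutation p = 0.00794) on the log2 scale. This measure does not take fibre content out of the comparison. On that scale the groups overlapped for Bfsp1, at 4294 in Normal replicate 1 and 4131 in Hypothermia replicate 3, and did not for Bfsp2.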

How the data were processed

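RNA from lens capsules of 10 rats was sequenced as paired-end libraries. Per the study's methods, the authors aligned cleaned reads to Rnor_6.0 with HISAT2 2.0.5, counted reads per gene with featureCounts 1.5.0-p3, computed FPKM from gene length and read count (in the table, with 1 constant for all rats after their size factors), and compared the groups with DESeq2 1.16.1. The deposited table held counts and FPKM for each rat, the authors' group means of normalized counts (a signal unit), gene length, and the authors' log2 fold changes and p-values of the comparison, which were not used. The table listed 3334 genes selected by the comparison. Totals of listed genes are therefore not library depths.

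Size factors were recovered from the authors' group means (largest relative error 4.9e-10) and were 0.744 to 0.98 for Hypothermia rats and 1.08 to 1.26 for Normal rats. The deposited counts were tested with edgeR 4.0.16 (quasi-likelihood, robust, group only, filterByExpr) in R 4.3.3, with p-values adjusted over 20000 genes. Calls needed an adjusted p below 0.05 with a log2 fold change beyond 1 in size. Ratios were tested with exact two-sided permutation tests (SciPy 1.17.1), and likeness used log2(normalized count + 1). Scripts were tested on simulated data. Alternatives were other scalings, DESeq2 1.42.0, other filters and adjustment, a replicate block and leaving out each rat. Separate rats served as replicates.

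Members and gene lists were chosen with earlier results of these data known. Genes named were the members, ratio partners, up to 4 called genes per list with the highest mean FPKM, listed genes not called where few remained, and the 5 genes most like each member. Gja1, Pax6 and Synm were named as markers or as the few tested genes of a list, and Efna5, Atp1b1 and Itgb1 after their values were seen. Promoters came from RefSeq (GRCr8).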

Additional observations from a re-analysis of the deposited data

Results flagged for a closer look

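The FPKM of Bfsp1 in Hypothermia replicate 5, 1559, stood apart from the other 4 rats of its group, whose highest value was 799. On the linear scale its gap to the nearest rat was 0.734 of the range of the group, above Dixon's 95% critical value for 5 samples. It was the 1 value of this kind among 34 groups of 5 values checked, where chance gives about 1 in 20. A single such value is therefore no more than chance gives. Bfsp2 was also highest in that rat, at 1489, without passing the same check. Without it the log2FoldChange of Bfsp1 was 1.80, with an adjusted p of 0.0700 from edgeR.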

How the results depend on the processing

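Bfsp1 and Bfsp2 were higher in the Hypothermia Group under each setting tried. Their calls were lost with totals of listed genes (1.07 and 0.34), and that of Bfsp1 also in 6 of 10 fits without 1 rat (log2FoldChange 1.80 to 2.77). With TMM, median-of-ratios, upper-quartile and listed-total scaling, 176, 173, 161 and 37 genes were called higher and 195, 204, 220 and 1165 lower, beside 316 and 46, as the median of all genes moved by -0.29, -0.31, -0.33 and -1.23. Genes called lower numbered 147 with DESeq2 and the authors' size factors (398 higher), 341 with DESeq2's own (238 higher), 147 with adjustment over tested listed genes (376 higher) and 19 with a mean count of at least 50. Leaving out 1 rat gave 186 to 385 higher and 21 to 64 lower, the lowest of each without Normal replicate 4. Listed totals turned Sptbn1 (-0.060), Prx (-0.065), Epb41l1 (-0.14), Vim (-0.79), Synm (-0.18), Ube2k (-0.43) and Wsb2 (-0.63). Near 0, the ratio of Bfsp2 to Cryab turned without Hypothermia replicates 2 (-0.055) or 5 (-0.087) or Normal replicates 2 (-0.054) or 5 (-0.021), and that of Bfsp1 to Hsf4 without Hypothermia replicate 3 (0.0065), their ranges being -0.087 to 0.15 and -0.15 to 0.0065. The partner ratio ranged from -1.03 to -0.60 without 1 rat. Beyond construction of each setting, the cause was not tested.

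Replicate numbers were shared between groups of different animals. Deviations of same-numbered rats correlated between -0.108 and 0.210, and 1 Hypothermia rat correlated best with the Normal rat of its number, so the numbers were not taken as pairs. With a replicate block, log2FoldChanges were 2.42 and 1.57 and 248 genes were called higher and 14 lower. The partner ratio then had p = 0.0625 (difference -0.84, exact sign-flip test), the smallest that 5 pairs allow.

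The members had at least 2233 counts in every rat. Limits include 5 rats per group, a table of selected genes, and cold, medium and isolation coming together; they were not ranked.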
